A study of Mus musculus with 2 samples.

Results

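The genes described here encode the proteins of the mitochondrial ribosome. They were taken as all genes whose name on the array begins with Mrpl (named for the large subunit) or Mrps (named for the small subunit) followed by a digit, leaving out pseudogene names that end in -ps. The rule found 76 genes, 47 named Mrpl and 29 named Mrps, of 36493 gene names on the array. The name does not always give the place of the protein: those of Mrps18a and Mrps30 lie in the large subunit, and that of Mrps36 has since been assigned to the oxoglutarate dehydrogenase complex. They were covered by 100 probes on 127 spots, and the brightest probe over both arrays stood for its gene. The rule uses no measured difference, though it was set with earlier results of these data known.

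The study compared 2 cultures of NSPCs, neural stem and progenitor cells made from mouse embryonic stem (ES) cells and kept as neurospheres, which are floating clusters of such cells. One culture was a control for overexpression and the other overexpressed the microRNA miR-153, and the labels name no other allele, agent or strain. Both cultures were in the tertiary neurosphere stage (passage 2) after 18 days of culture from the embryoid bodies, and each gave 50 ng of total RNA for cyanine-3 labelling and 1-colour Agilent arrays. Each group had 1 array, so no test between the conditions was possible, no p-value is given, and differences describe these 2 RNA samples only.

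Mitochondria carry their own ribosome, which makes the few proteins that mitochondrial DNA encodes, all of them subunits of the respiratory chain and ATP synthase. Its ribosomal RNAs come from mitochondrial DNA, while every one of its proteins is encoded in the nucleus, made in the cytosol and imported. Many of these proteins descend from bacterial ribosomal proteins, and others are found only in mitochondria. Promoters of such nuclear genes often carry sites for the factors NRF1, GABP (an ETS factor) and YY1.

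The 2 mature strands of miR-153 are shown first because the seed is the part of a microRNA that pairs with its targets. Sequences are from RefSeq (GRCm38.p6), 5′ to 3′, with the seed, bases 2 to 8, in capitals.
mmu-miR-153-3p: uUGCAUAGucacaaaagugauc
mmu-miR-153-5p: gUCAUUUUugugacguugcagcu
The DNA complement of the 3p seed, CTATGCA, occurred in 0 of the 100 probes for these genes and in 0.336% of all 55674 probes. That of the 5p seed, AAAATGA, occurred in 0 of 100 and in 1.12% of all probes. A probe covers 60 bases of a transcript, so these counts say nothing of sites elsewhere in the messages.

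Promoters were matched by symbol for 67 of the 76 genes, and 9 had no entry. In windows from 250 bases before to 50 bases after the RefSeq start, both strands were searched for 4 short motifs. The NRF1 motif GCGCATGC was found in 8 of the 67 windows (11.9%), against 2.80% of the windows of all 27025 genes in the table. The ETS/GABP motif CCGGAAG was found in 23 (34.3%), against 9.12%. The YY1 motif AAGATGGC was found in 12 (17.9%), against 2.88%. The E-box CACGTG, which Myc can bind, was found in 5 (7.46%), against 7.24%. At least one of the 4 was present in 37 windows and absent from 30, against 19.6% of all windows with one. Matches of different motifs overlapped in 0 of the 67 windows. A match is a description of letters and shows no binding.

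The 150 bases before the start are printed for 5 genes, in the direction of transcription, with motifs in capitals. Mrps6 had the lowest difference of all members and no motif. Mrpl22 holds an NRF1 and an ETS/GABP motif, Mrpl53 an ETS/GABP motif on each strand and Mrps18a an ETS/GABP motif. Mrps18a also has a YY1 motif in the window searched, outside the bases printed. Mrpl10, one of the few members higher on the miR-153 array, holds an NRF1 motif. All 5 lie on the plus strand of GRCm38.p6, at chr16:92058186-92058335, chr11:58171514-58171663, chr6:83108958-83109107, chr17:46110854-46111003 and chr11:97041432-97041581 in the order of the lines.
Mrps6: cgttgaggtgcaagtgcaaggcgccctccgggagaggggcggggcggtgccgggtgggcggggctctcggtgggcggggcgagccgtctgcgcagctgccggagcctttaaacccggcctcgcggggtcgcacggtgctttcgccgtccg
Mrpl22: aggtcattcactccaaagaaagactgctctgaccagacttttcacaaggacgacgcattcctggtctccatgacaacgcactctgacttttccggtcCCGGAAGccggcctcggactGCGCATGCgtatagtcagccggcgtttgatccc
Mrpl53: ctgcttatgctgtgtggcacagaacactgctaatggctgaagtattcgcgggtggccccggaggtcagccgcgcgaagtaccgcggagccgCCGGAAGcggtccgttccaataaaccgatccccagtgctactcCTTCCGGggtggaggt
Mrps18a: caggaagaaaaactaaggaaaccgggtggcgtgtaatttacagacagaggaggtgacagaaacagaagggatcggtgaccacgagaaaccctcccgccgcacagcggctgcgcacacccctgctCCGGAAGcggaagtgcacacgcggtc
Mrpl10: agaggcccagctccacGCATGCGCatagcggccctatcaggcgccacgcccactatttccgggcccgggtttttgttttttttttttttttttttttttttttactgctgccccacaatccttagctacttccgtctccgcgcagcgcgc

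Levels below are log2 of the background-subtracted spot intensity minus the 75th percentile of the same array (an intensity of 435 on the control and 549 on the miR-153 array). A difference is the miR-153 level minus the control level. Of the non-control spots, 52.5% on the control and 55.6% on the miR-153 array were well above background by the scanner's flag, and 0 spots were saturated. Of the 76 genes, 75 were well above background on both arrays and are called measured, beside 20473 genes over the whole array. The exception was Mrpl21, whose only probe was not well above background on either array (intensities 4.55 and 19.1) and which gets no fold. Probes differ in how strongly they bind, so a brighter probe does not show a more abundant message.

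The mitochondrial ribosomal protein genes were slightly lower on the miR-153 array. Their median difference was -0.35 (middle 50% from -0.55 to -0.11, SD 0.33 over 75 genes), a 1.27-fold lower level, with a range from -1.08 to 0.40. The members' median levels were 3.37 (control) and 2.95 (miR-153). By the fixed rule of at least 2-fold, 1 gene was lower (Mrps6), where 11.1% of all measured genes were, and 0 were higher, where 9.21% of all were. At 1.5-fold, 17 of the 75 were lower (22.7%), beside 24.6% of all genes, and 0 were higher, beside 18.6%. The share past either fold on the low side was thus at or under that of the array as a whole. Below 0 lay 63 of the 75 (84.0%), beside 56.1% of all genes.

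All measured genes had a median difference of -0.11 and an SD of 0.88, against the SD of 0.33 over the 75. The middle 50% of the members spanned 0.44, wider than that of the cytosolic ribosomal proteins (0.22) or of the respiratory chain subunits (0.29). By SD the members were not wider than the respiratory chain subunits (0.33), though wider than the cytosolic ribosomal proteins (0.26). Among the 13099 measured genes with a RefSeq match the median was 0.01, 9.85% were at least 2-fold lower, 20.2% at least 1.5-fold lower and 49.6% below 0. Among 3137 genes in the range of level that holds the middle 50% of these genes (2.27 to 4.06), the median was -0.04 and the SD 0.77. Of them, 7.91% were at least 2-fold lower, 19.6% at least 1.5-fold lower and 52.3% below 0. At 1.5-fold the members' 22.7% lay above the shares of both these sets and under that of all genes. In bulk RNA, fewer cells of a type and less RNA per cell cannot be told apart.

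**Figure D1:**
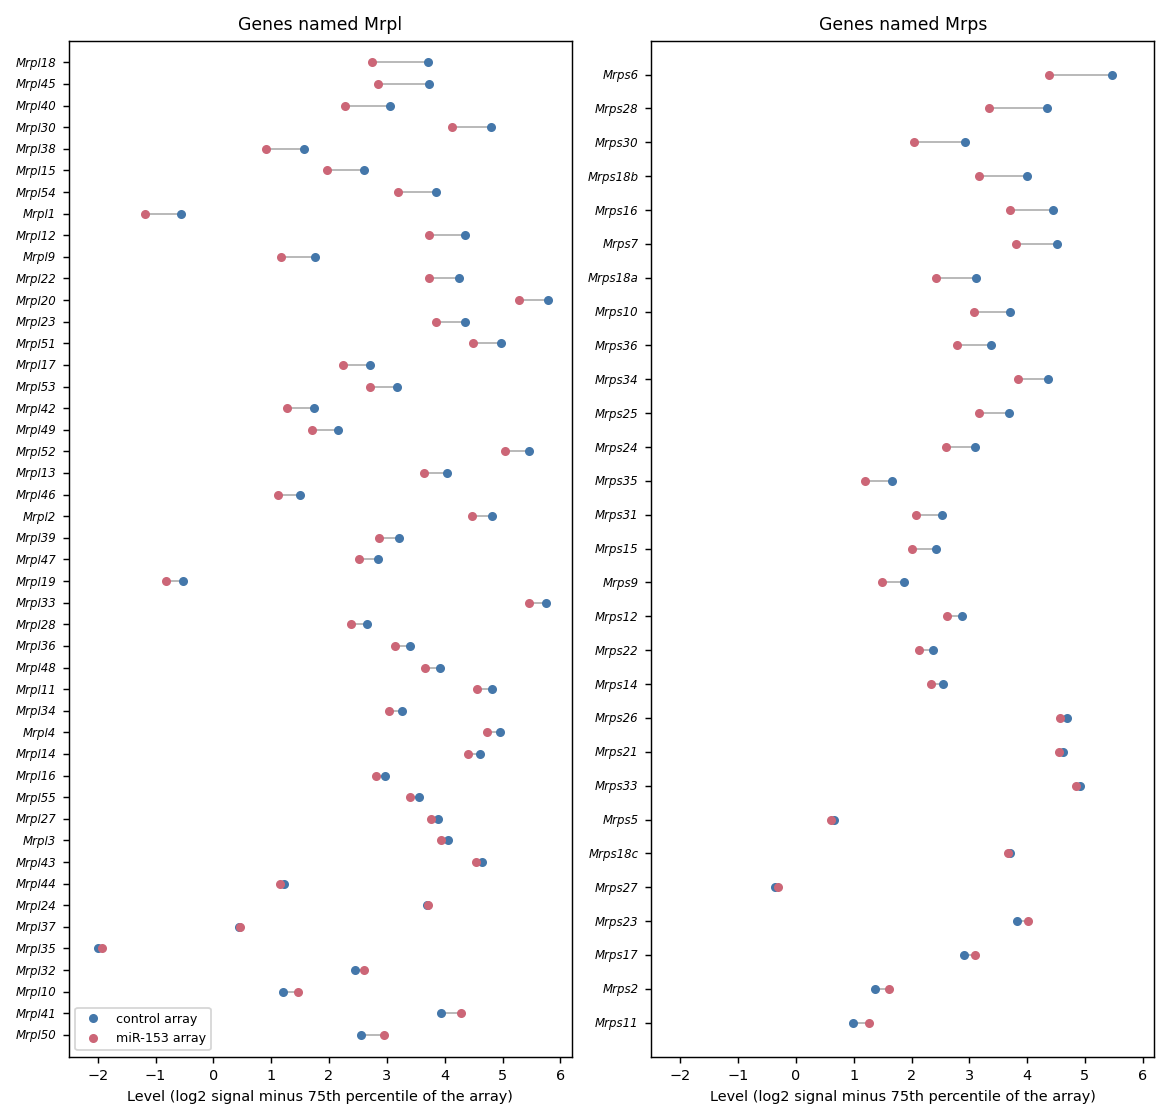
Levels of the 75 measured genes on both arrays (x axis, log2 signal minus the 75th percentile of the array), Mrpl genes at left and Mrps genes at right, ordered by difference. Blue points are the control array and red points the miR-153 array, each a single array. In 63 of 75 genes the red point lies to the left of the blue one.

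The size of a single difference is read against 3 kinds of technical error. Repeat spots of one probe within these arrays differed with a median SD of 0.072 (250 probes). The SD of a single probe within a gene was 0.447 (3442 genes with several measured probes), and for these genes 0.278 (23 genes). It was taken from the gap between the brightest and second brightest probes, scaled down to a single probe. The gap itself spreads more widely. The scanner's own error model gave 0.204 to 0.223 for a difference. None of these includes the spread between cultures.

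Among the genes named Mrps the median difference was -0.41 over 29 genes (range -1.08 to 0.29), with 1 at least 2-fold lower and 24 below 0. At least 1.5-fold lower were 8 (27.6%), beside 24.6% of all genes and 19.6% of genes in the same range of level. Without Mrps18a, Mrps30 and Mrps36 the median over the 26 others was -0.32, with 6 at least 1.5-fold lower (23.1%) and 21 below 0. Mrps6, whose bacterial counterpart sits at the edge of the small subunit's platform, had an intensity of 19149 on the control and 11424 on the miR-153 array, or levels of 5.46 and 4.38. It was 2.12-fold lower (-1.08), the only member past 2-fold, on a probe at chr16:92112223-92112282 (mm9, plus strand). Under spike-in scaling it was at -0.85, short of the rule.

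Mrps28 stood just outside the rule, with levels of 4.34 and 3.34, the miR-153 level being 50.1% of the control level. Its probe lies at chr3:8802222-8802281 (minus strand). Mrps16 (4.45 and 3.69, -0.75) and Mrps7 (4.51 and 3.80, -0.71) encode proteins that have bacterial counterparts binding the small-subunit RNA early in assembly. Mrps10 (3.71 and 3.08, -0.64) encodes a protein of the small subunit's head. On the brightest probe these differences exceeded the SD of a single probe (0.447). The second probe of Mrps7 gave -0.38, inside that SD, and Mrps10 stood at -0.40 under spike-in scaling. All 5 were below 0 under the 6 scaling and background settings.

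Mrps30 encodes one of the large-subunit proteins that carry a small-subunit name. Its level was 2.93 on the control and 2.04 on the miR-153 array (-0.90). Mrps18 exists as 3 genes, of which Mrps18c encodes the counterpart within the small subunit's platform, Mrps18b another small-subunit protein and Mrps18a the one in the large subunit. Mrps18b had levels of 3.99 and 3.17 (-0.82), and its other probe gave -0.56. Mrps18a had levels of 3.12 and 2.43 (-0.69). Mrps18c had nearly equal levels of 3.70 and 3.67 (-0.02), and lay above 0 under all 5 other settings of scaling and background correction, from 0.03 under quantile normalization to 0.21 under spike-in scaling. A gap between paralogs holds the error of both probes, which is larger than the SD of a single probe. Whether the paralogs differ is therefore not settled by these arrays, and no test between cultures was possible.

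Of the 5 genes named Mrps that lay above 0, the highest were Mrps11 (0.98 and 1.27, 0.29) and Mrps2 (1.37 and 1.61, 0.23). Mrps17 stood at 0.19, Mrps23 at 0.18 and Mrps27 at 0.05. None of them passed 1.5-fold, and their differences are close to the error of a single probe. Mrps27, an RNA-binding protein gene, had one of the 5 dimmest probes (-0.36 and -0.31), and Mrps33 one of the 5 brightest (4.91 and 4.84). Mrps36 was at 3.37 and 2.79 (-0.58), just outside 1.5-fold.

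Among the genes named Mrpl the median difference was -0.34 over 46 genes (range -0.98 to 0.40), with 0 at least 2-fold lower, 9 at least 1.5-fold lower and 39 below 0. The 9 are 19.6% of the 46, under the 24.6% of all genes and equal to the 19.6% of genes in the same range of level. With Mrps18a and Mrps30 counted in, the median over 48 genes was -0.34 and 11 were at least 1.5-fold lower (22.9%). The lowest was Mrpl18, a gene for the counterpart of a bacterial protein that binds 5S ribosomal RNA. Its intensity was 5728 on the control and 3657 on the miR-153 array, or levels of 3.72 and 2.73 (-0.98), on a probe at chr17:13104338-13104397 (mm9, minus strand). Mrpl45, whose protein anchors the ribosome to the inner membrane beside the exit tunnel, had levels of 3.73 and 2.84 (-0.89).

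The other 7 of those 9 Mrpl genes were close together. Mrpl40 had levels of 3.05 and 2.27 (-0.79), Mrpl30 of 4.80 and 4.13 (-0.67) and Mrpl38 of 1.57 and 0.91 (-0.67). Mrpl40 and Mrpl38 encode proteins without a bacterial counterpart, and Mrpl30 encodes one with such a counterpart. Mrpl15 had levels of 2.61 and 1.96 (-0.65), Mrpl54 of 3.84 and 3.19 (-0.65), Mrpl1 of -0.56 and -1.18 (-0.62) and Mrpl12 of 4.35 and 3.73 (-0.62). Just outside 1.5-fold stood Mrpl9, with levels of 1.76 and 1.17 (-0.58).

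The 3 genes of the stalk, the flexible arm that recruits translation factors, did not share a direction. Mrpl12, the repeated stalk protein, was at -0.62, Mrpl11, at the base, at 4.82 and 4.56 (-0.26), and Mrpl10, which joins the others, at 1.20 and 1.47 (0.27), and its second probe was also above 0 (0.44). Among 6 genes around the exit tunnel (Mrpl17, Mrpl22, Mrpl23, Mrpl24, Mrpl45 and Mrpl47) the median was -0.49, and 5 were below 0. Mrpl22, which lines the tunnel, had levels of 4.25 and 3.72 (-0.52). Mrpl24 was the exception, with nearly equal levels of 3.70 and 3.71.

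The highest member was Mrpl50, with levels of 2.55 and 2.95 (0.40), followed by Mrpl41 (3.94 and 4.28, 0.34) and Mrpl10. Mrpl41 stayed above 0 on its other probe (0.48), whereas Mrpl50 did not, as described with the probes. Mrpl32 was at 0.16, and Mrpl37 (0.44 and 0.46) and Mrpl35 (-2.00 and -1.93) differed by under 0.1. Mrpl35, Mrpl1, Mrpl19 (-0.52 and -0.82), Mrps27 and Mrpl37 were the 5 measured genes with the dimmest probes. Mrpl33 (5.76 and 5.46), Mrpl20 (5.79 and 5.28), Mrpl52 (5.46 and 5.04), Mrps6 and Mrps33 had the brightest.

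Genes with a bacterial counterpart had a median of -0.30 (47 measured), and 12 were at least 1.5-fold lower (25.5%, beside 24.6% of all genes). Genes found only in mitochondria had a median of -0.42 (27 measured), and 5 were at least 1.5-fold lower (18.5%). Probes that cross an intron in the genome, which read spliced messages, covered 10 measured genes with a median of -0.40, and the other 65 had -0.34. Genes with the NRF1 motif had a median of -0.40 (8 measured) and the 58 without it -0.27. With the ETS/GABP motif the median was -0.25 (22 measured) and without it -0.34, and with the YY1 motif it was -0.26 (12 measured) and without it -0.34. For the E-box the medians were -0.26 (5 measured) and -0.34. These medians are descriptions, and no test between the groups of genes was made.

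**Figure D2:**
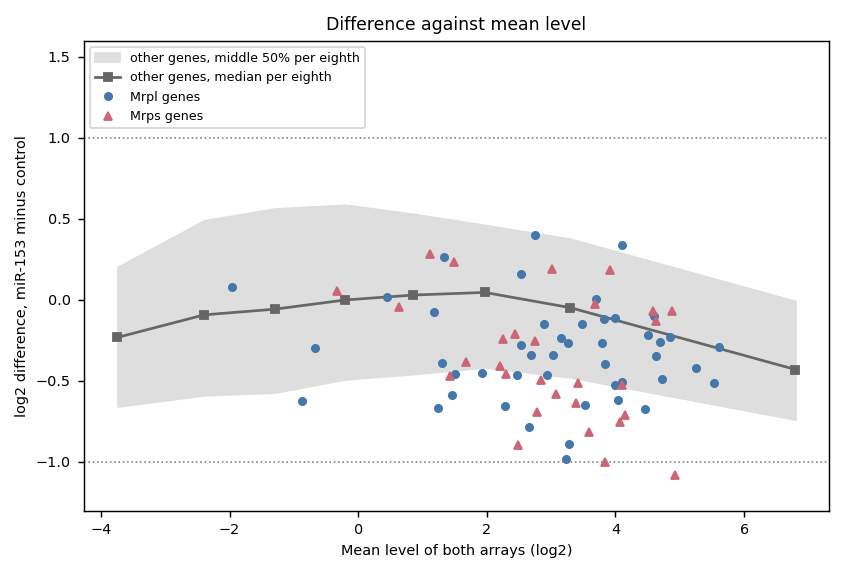
Difference (y axis, log2, miR-153 minus control) against the mean level of both arrays (x axis, log2) for the 75 measured genes, with Mrpl genes as blue circles and Mrps genes as red triangles. The grey line joins the medians of all other measured genes in 8 equal parts by level, each drawn at the middle of its part. The band spans their middle 50%, and dotted lines mark 2-fold. Most members lie below the line. Its last point, -0.43 for the brightest part, is drawn to the right of every member.

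The difference of other genes depended on level, so the members were also set beside other genes in 8 equal parts by mean level. In the sixth part, 15 members had a median of -0.45 beside 0.05 for the other genes. In the seventh, 30 members had -0.37 beside -0.05. In the brightest, 19 members had -0.35 beside -0.43, and 8 of the 19 lay below the median of the others. The members' median was thus below that of the other genes in the sixth and seventh parts and not in the brightest. The brightest part runs from 4.04 to 9.55, however, and its brightest member, Mrpl33, has a mean level of 5.61. Its other genes therefore include ones brighter than any member, and the comparison there is not between genes equally bright. Over all parts, 53 of the 75 lay below and 22 above the median of their own part, with a median distance of -0.24.

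Of the members, 23 had several measured probes, and these give the only repeat within a gene. Both of the brightest probes were below 0 in 13 genes and above 0 in 4, and 6 had opposite signs. The largest disagreement was Mrpl50. Its brightest probe, averaged over 9 spots, gave 0.40 with an SD of 0.056 between the spots. Its second probe, 3.02 log2 units dimmer, had levels of 0.04 and -0.58 and gave -0.62, and the mean of both was -0.11. The direction for Mrpl50 is therefore not settled by these arrays.

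The first 30 bases of the 60-base probes are shown for Mrpl50 and for Mrps2, whose second probe gave 0.90 where the brightest gave 0.23. They show that the probes of a gene read different stretches of its message. On mm9 the Mrpl50 probes lie at chr4:49525602-49525661 and chr4:49527089-49527148 (minus strand), and the Mrps2 probes at chr2:28326283-28326342 and chr2:28325206-28325265 (plus strand), in the order of the lines. Whether these stretches are coding or untranslated was not examined here.
Mrpl50, brightest probe: aaagttccactgtgttttactccataagta
Mrpl50, second probe: aatgttcctgttcaagacaaatctaaattt
Mrps2, brightest probe: caaagaaggaaatccatacctgtttcccac
Mrps2, second probe: gcctaccagacctcatcatctttctgcaca

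The other genes with opposite signs were Mrps25 (-0.51 and 0.06), Mrps14 (-0.21 and 0.33), Mrpl49 (-0.45 and 0.10), Mrpl4 (-0.23 and 0.01) and Mrps23 (0.18 and -0.01), the brightest probe first in each. In Mrpl15 both probes were low, at -0.65 and -1.33, and the second would pass 2-fold. The third probe of Mrpl47 would pass it too (-1.08), but it was dim (levels of -3.13 and -4.21). The brighter probes of Mrpl47 gave -0.34 and -0.23. In Mrpl9 both were low too (-0.58 and -0.95). The probes of Mrpl40 (-0.79 and -0.69) share 52 bases and are not independent. Repeat spots of Mrpl34 gave -0.23 (SD 0.050, 10 spots) and those of Mrps35 -0.47 (SD 0.049, 10 spots), so spot-to-spot error was far smaller than the gap between probes of one gene.

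**Figure D3:**
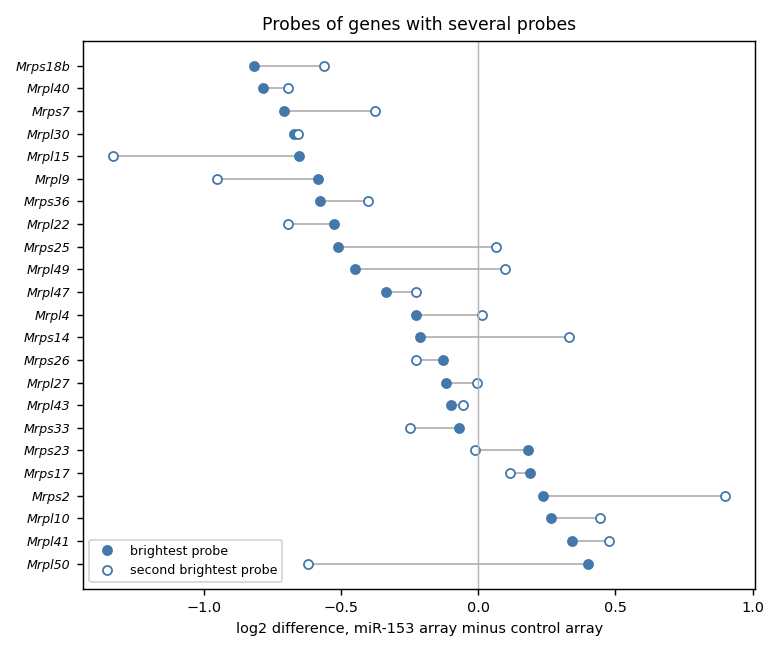
Differences (x axis, log2, miR-153 minus control) of the brightest probe (filled) and the second brightest probe (open) for the 23 genes with several measured probes, ordered by the brightest. In 17 genes both lie on the same side of 0, and the widest gaps are those of Mrpl50, Mrpl15 and Mrps2.

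The remaining proteins of the mitochondrial ribosome carry other names on the array. All 7 measured ones lay below 0, with a median of -0.46 and 0 past 2-fold. Chchd1, a small-subunit protein gene, had levels of 5.77 and 4.92 (-0.85), Mrpl57 of 5.14 and 4.39 (-0.75) and Dap3, a GTP-binding small-subunit protein gene, of 5.48 and 4.86 (-0.61). Gadd45gip1 was at -0.46 but at 0.28 as the mean over its probes. Mrpl58 was at -0.35, Ptcd3 at -0.20 and Aurkaip1 at -0.10, and the sign of Ptcd3 turned under spike-in scaling (0.03). Aurkaip1 turned under spike-in scaling (0.13), quantile normalization (0.32) and lowess (0.29).

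Genes that build or work with this ribosome spread on both sides of 0. Assembly factors had a median of 0.16 (26 of 27 measured), with 0 at least 2-fold lower and 3 higher (11.5%, beside 9.21% of all genes). These were Mettl17 (-1.87 and -0.46, 1.40), an assembly factor of the small subunit, Mrm2 (-2.00 and -0.92, 1.08), a methyltransferase for the large-subunit RNA, and Ybey (-1.62 and -0.60, 1.02), an RNA-processing enzyme gene. All 3 are dim, and with normexp background correction they stood at 0.98, 0.72 and 0.70, under 2-fold. Translation factors and aminoacyl-tRNA synthetases of mitochondria had a median of -0.09 (32 of 33 measured), which turned to 0.14 under spike-in scaling and 0.02 under median scaling. One was at least 2-fold higher, Mrrf, the ribosome recycling factor (-2.32 and -0.58, 1.74, or 1.14 with normexp correction), and 0 were lower.

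Genes for the upkeep and transcription of mitochondrial DNA had a median of 0.12 (14 of 15 measured), with 1 at least 2-fold higher, Mterf2 (0.21 and 1.29, 1.09, or 0.99 with normexp correction). The messages encoded by mitochondrial DNA itself, the products this ribosome translates, had a median of -0.06 over 11, which turned to 0.17 under spike-in scaling and 0.49 under quantile normalization. Regulators of nuclear mitochondrial genes had a median of -0.39 (10 of 11 measured), with 0 past 1.5-fold. Of the factors whose motifs were searched, Nrf1 had levels of 1.90 and 1.43 (-0.47), Gabpa of 1.15 and 0.70 (-0.45), Yy1 of 1.81 and 1.44 (-0.37) and Myc of 1.56 and 1.25 (-0.31). All 4 differences were under 1.5-fold.

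**Figure D4:**
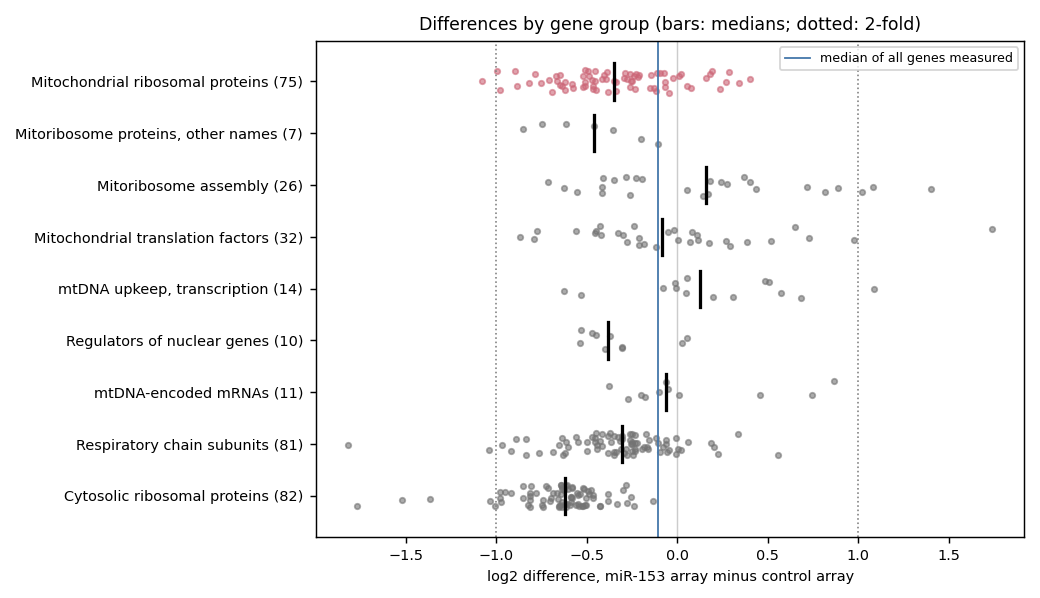
Differences (x axis, log2, miR-153 minus control) of single genes in the mitochondrial ribosomal protein group (red) and in 8 other groups (grey), with the number measured in brackets. Thick bars are group medians (-0.35 for the members), the blue line is the median of all genes (-0.11) and dotted lines mark 2-fold.

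The groups most alike in kind are the proteins of the cytosolic ribosome and the respiratory chain. Cytosolic ribosomal proteins had a median of -0.62 (82 of 85 measured, all below 0, 5 at least 2-fold lower), but -0.06 under quantile normalization and 0.00 under lowess. Nuclear-encoded respiratory chain subunits had a median of -0.30 (81 of 85 measured, 2 at least 2-fold lower), but 0.03 and 0.02 under those 2 settings. The median of the mitochondrial ribosomal protein genes was -0.29 and -0.27 under them. No test of a difference between the groups was possible.

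Cell cycle genes, hypoxia response genes and markers of cell types also differed between the arrays. All 21 measured cell cycle genes were at least 2-fold lower on the miR-153 array (median -2.28), as were 16 of 18 hypoxia response genes (median -2.46). All 6 neuron markers were higher (median level 1.99 on the control and 3.63 on the miR-153 array), as were all 5 oligodendrocyte markers (0.62 and 3.11) and all 4 astrocyte markers (-0.26 and 0.77). Of the astrocyte markers 1 was at least 2-fold higher, S100b (1.44). Gfap was dim (-2.72 and -2.49), and its difference of 0.23 was smaller than the SD of a single probe. The 8 progenitor markers were all measured and went both ways: Nes (-0.95), Vim (-0.72) and Pax6 (-0.69) were at least 1.5-fold lower, and Prom1 (1.74) and Sox1 (1.15) at least 2-fold higher. Of the other markers, 0 of the 3 blood markers, 0 of the 3 endoderm markers and 0 of the 3 muscle markers were measured. The muscle marker Myh6 was above background on the control array alone. Of the 3 pluripotency markers 1 was measured, Nanog (0.45 and 0.35). Pou5f1 was above background on the miR-153 array alone, but its level was not higher there (-4.18 on the control and -4.47 on the miR-153 array). Of the 2 endothelial markers 1 was measured, Pecam1 (-3.48 and -3.74). The part of these differences in the result for the mitochondrial ribosomal protein genes was not tested.

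The scaling sets where 0 lies. On the added spike-in RNAs, every difference is higher by 0.23, which put all genes at 0.12, these genes at -0.12 and 49 of the 75 below 0. Over 6 settings of scaling and background correction, 48 of the 75 were below 0 in every one, 10 above 0 in every one, and 17 changed sign. Median and spike-in scaling raise every difference, so they could turn a value below 0 but not one above it. The median of the members stayed 0.16 to 0.27 below that of all genes.

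**Figure D5:**
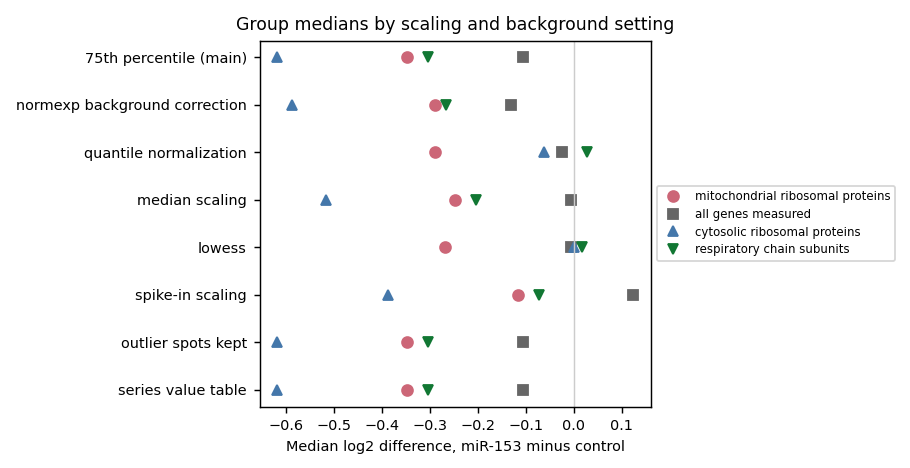
Median difference (x axis, log2, miR-153 minus control) of the mitochondrial ribosomal protein genes, all measured genes, cytosolic ribosomal protein genes and respiratory chain genes under 8 settings. The median of the mitochondrial ribosomal protein genes lies left of 0 and of all genes in each, from -0.35 to -0.12.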

How the data were processed

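Values were scanner intensities deposited by the authors. The submitters' processing notes name Agilent Feature Extraction 10.7.3.1. Its processed signal is a linear intensity from which background has been subtracted, per the file headers, and each spot has flags for outliers, saturation and signal well above background. Both arrays lay on the same slide at different positions. A table of authors' processed values equals that signal divided by a constant per array (381 and 485), and its columns of other samples numbered 0.

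Of 62976 spots, 59305 were not controls; 229 with an outlier flag were left out, 1 of them of a member, and repeat spots were averaged to 55674 probes. RefSeq accessions matched 26296 probes (47.2%) and 97 of the 100 member probes; the others kept the array's name. Probe positions are the array annotation's on mm9. The brightest probe over both arrays stood for a gene. log2 levels were scaled on the 75th percentile (Python 3.11.15, pandas 2.3.3).

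With 1 array a group no test was made: at least 2-fold was a fixed rule, read beside the share of all genes. The 12 alternatives were normexp correction with an offset of 50 (limma 3.58.1, R 4.3.3), quantile, median, lowess (statsmodels 0.14.6, span 0.3) and spike-in scaling (8 probes), no filter on dim probes and bright probes alone, the mean over probes, the second probe, outlier spots kept, the authors' table, and a 1.5-fold rule. The calculation was tested on simulated data. Members, gene lists and alternatives were chosen with earlier results of these data known. Named in full were members past 1.5-fold, the 5 brightest and 5 dimmest, those with probes of opposite sign, the Mrps18 genes, and of other lists up to 4 genes past 2-fold. Other named genes were chosen for their role or after their values were seen.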

Additional observations from a re-analysis of the deposited data

How the results depend on the processing

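The count of 1 gene at least 2-fold lower fell to 0 under quantile normalization, median scaling, lowess and spike-in scaling, and rose to 17 with the 1.5-fold rule. The count of 0 higher became 1 with no filter on dim probes, the gene being Mrpl21 (1.73), which is not well above background on either array. The members' median of -0.35 was -0.25 under median scaling, -0.27 under lowess and -0.12 under spike-in scaling. The Mrpl median of -0.34 was -0.25 under quantile normalization, -0.24 under median scaling, -0.22 under lowess and -0.11 under spike-in scaling, and the Mrps median of -0.41 was -0.31 under median and -0.18 under spike-in scaling. On the second brightest probe, which exists for 23 members, the medians were -0.23 for all, -0.23 for Mrpl and -0.12 for Mrps, while the brightest probes of the same 23 genes had a median of -0.23. Median and spike-in scaling shift every difference by one constant, and the cause of the other changes was not tested. The medians of all members, of the Mrpl and of the Mrps genes stayed below 0 under the 11 other settings that give one; medians of other gene lists that turned stand beside their values. Chosen after seeing the data, leaving Mrps18a, Mrps30 and Mrps36 out of the small subunit gave -0.32. No paired analysis was possible because each group had 1 array. The number of arrays limits the precision: the spread between cultures is unknown. A difference under about the single-probe SD of 0.447 cannot be told from probe error. Passing that SD does not by itself set a difference apart from probe error.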

Other observations

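Of the 67 members with a promoter entry, 21 have another gene's start on the opposite strand within 500 bases, pointing away, and the partners lay on both sides of 0. Mrps11 and Mrpl46 are both members and start head to head, with 41 bases between their starts at chr7:78783090-78783130 of GRCm38.p6, printed here on the plus strand and holding none of the 4 motifs.
Mrps11 to Mrpl46: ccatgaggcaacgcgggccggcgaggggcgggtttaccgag
Mrpl46 had intensities of 1232 and 1189 (log2 difference after scaling -0.39) and Mrps11 of 859 and 1321 (0.29), each on a single probe. The opposite signs held under all 6 settings of scaling and background correction. Both differences were smaller than the SD of a single probe given above, an error that those settings do not address.

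Mrpl18 (-0.98) and its partner Tcp1, a chaperonin subunit gene with levels of 4.69 and 4.01 (-0.68), were both lower. Mrpl2 (-0.35) lies opposite Klc4, a kinesin light chain gene, which was higher by 1.32. Mrpl27 (-0.12) lies opposite Eme1, a DNA repair gene, with levels of -0.55 and -2.00 (-1.45). Mrps7 (-0.71) lies opposite Gga3 (2.41 and 3.14, 0.73), and Mrpl40 (-0.79) opposite Hira, a histone chaperone gene (1.01 and 1.35, 0.35). These pairs were picked after their values were seen, and no test of them was possible.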
